A study of Homo sapiens with 480 samples.

Results

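The heat shock chaperones described here are 10 human genes of the HSP60, HSP70 and HSP90 systems. They are HSPD1 and HSPE1, HSPA9, HSP90AB1 and HSP90AA1, STIP1, HSPA8, DNAJA1, HSPA4 and HSPH1. They were chosen by name from the 20302 features of the expression table, with earlier results of these data known. All 10 were found in the table, and all 10 were among the 13560 genes with enough counts to be tested. Jurkat, a line of human leukaemic T cells, and J-Lat A2, a Jurkat clone that carries an integrated construct derived from HIV, were grown in flasks and given a drug for 24 h before single cells were sorted into plates. DMSO at 0.1% v/v was the solvent control. SAHA at 1 uM inhibits histone deacetylases, and PMA at 1 ug/mL activates protein kinase C; both are used to reactivate latent HIV. J-Lat A2 is a single clone, so what belongs to the clone and what belongs to its viral construct cannot be told apart.

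Chaperones bind proteins that are not yet folded and use ATP to release them in a foldable state. HSP70 proteins take short hydrophobic stretches, handed over by J-domain proteins, and the cochaperone STIP1 passes some of these clients on to HSP90, which matures kinases and steroid receptors. HSPD1 and HSPE1 form the folding chamber of the mitochondrial matrix, and HSPA9 is the matrix HSP70. Many of these genes are transcribed at a high level in growing T cells and are raised further by heat shock factors when unfolded protein accumulates, through repeats of the letters GAA and TTC in their promoters, called heat shock elements.

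The labels gave 480 wells on 5 plates. P2449 and P2458 were taken as the first batch and P2769, P2770 and P2771 as the second, since the design names 2 plates and then 3. Wells with few counts were left out and 410 were kept: 59 and 35 with DMSO, 67 and 68 with SAHA and 79 with PMA in J-Lat A2, and in Jurkat 12 and 18 with DMSO and 36 for each drug, the pairs being first and second batch. Their counts were added up per plate and per batch and are given per 1000000 counts of the sum (CPM). J-Lat A2 PMA, Jurkat SAHA and Jurkat PMA were in the second batch only, and in the tests their single sums were assumed to vary like the groups with 2. Plate sums held 1398739 to 19679858 counts. Of the T cell markers listed, CD4 was at 0 in 8 of 9 batch sums and CD5 in 1, and CD7 was low, at 0.416 to 3.05 CPM. The others were above 0 in all 9. MS4A1 and CD79B of B cells were at 0 in all 9. CD79A, another of the 4 B cell markers listed, was above 0 in all 9 sums, and the summed B cell list was 4.81 to 65.5 CPM with DMSO, 0.312 to 8.2 CPM with SAHA and 49 to 88.9 CPM with PMA. The summed level of the 12 T cell markers moved with the drugs: it was 4346 to 4871 CPM with DMSO, 875 to 1199 CPM with SAHA and 12119 to 13500 CPM with PMA. Their part in the results was not tested.

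Promoter sequences of 300 bases, from 250 before to 50 after an annotated start, were matched in RefSeq (GRCh38.p14) for 10 of 10 genes, in 15 windows. Heat shock element units were searched on both strands as rows of 2, GAANNTTC and TTCNNGAA, and as rows of 3, in which a row of 2 is followed after 2 further free bases by its first unit again. The 2 rows of 3 are the same letters read from either strand, and each contains rows of 2. The row of 3 was in 5 of the 15 windows, 1 each of HSPD1, HSP90AB1, HSP90AA1, HSPA8 and DNAJA1, and in 0.490% of all 35116 promoter windows. The row of 2 was in 7 of the 15, with HSPA9 and STIP1 added, and in 13.5% of all windows. The windows of HSPE1, HSPA4 and HSPH1 held neither. The 250 bases before the start are shown for the 4 genes around which the results turn, 5′ to 3′ on the gene's own strand, with the matched stretches in capitals. They are HSPA8 at chr11:123062137-123062386 (minus strand), HSP90AB1 at chr6:44247693-44247942 (plus strand), HSP90AA1 at chr14:102087045-102087294 (minus strand) and HSPD1 at chr2:197499841-197500090 (minus strand).
HSPA8: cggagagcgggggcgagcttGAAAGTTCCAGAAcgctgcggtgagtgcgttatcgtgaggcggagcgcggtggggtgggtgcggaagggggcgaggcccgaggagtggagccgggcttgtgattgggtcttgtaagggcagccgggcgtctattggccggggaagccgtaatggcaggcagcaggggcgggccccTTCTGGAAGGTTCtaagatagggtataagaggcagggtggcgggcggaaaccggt
HSP90AB1: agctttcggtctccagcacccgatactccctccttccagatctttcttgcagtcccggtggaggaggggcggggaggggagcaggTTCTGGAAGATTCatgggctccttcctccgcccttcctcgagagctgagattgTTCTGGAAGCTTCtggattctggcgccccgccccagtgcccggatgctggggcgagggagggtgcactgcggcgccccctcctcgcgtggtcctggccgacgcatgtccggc
HSP90AA1: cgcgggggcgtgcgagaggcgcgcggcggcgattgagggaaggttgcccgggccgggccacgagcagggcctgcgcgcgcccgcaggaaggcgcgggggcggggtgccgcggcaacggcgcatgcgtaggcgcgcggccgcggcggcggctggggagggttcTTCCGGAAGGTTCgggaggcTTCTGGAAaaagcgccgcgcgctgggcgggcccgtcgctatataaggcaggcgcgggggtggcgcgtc
HSPD1: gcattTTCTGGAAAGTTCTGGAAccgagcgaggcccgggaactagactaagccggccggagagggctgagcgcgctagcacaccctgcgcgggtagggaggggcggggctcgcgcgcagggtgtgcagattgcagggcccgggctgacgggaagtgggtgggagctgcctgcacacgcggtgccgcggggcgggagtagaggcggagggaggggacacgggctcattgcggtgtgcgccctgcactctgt
In HSPA8 the capitals began 230 and 55 bases before the start and in HSP90AA1 88 and 68 bases before it, where the second stretch is a row of 2 units. HSP90AB1 carried 2 stretches of 3 units. For HSP90AB1 and HSP90AA1 the bases shown lie before the most downstream of their annotated starts. The windows at their other starts held neither row. HSPD1 holds a longer run, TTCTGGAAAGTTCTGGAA, 245 bases before the downstream one of its 2 annotated starts. That run lies 294 to 311 bases from the start of HSPE1, which is transcribed the other way and starts 539 bases from that HSPD1 start and closer to the other one. A match of letters is a description and says nothing about binding in these cells. All 4 genes carried the letters. With SAHA, HSPA8 rose in both lines, and HSPD1 and HSP90AB1 fell in both. HSP90AA1 fell in Jurkat and was not called in J-Lat A2. The part of the letters in these changes was not tested.

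With DMSO the levels per kilobase of transcript ran in the same broad order in both lines. In J-Lat A2 cells HSP90AB1, the HSP90 form made constantly in the cytosol, was highest at 1983 and 1617 CPM per kb in the first and second batch. HSPA8, the HSP70 made constantly in the cytosol, had 731 and 1361 CPM per kb, HSPD1 1041 and 874, HSP90AA1, the inducible HSP90 form, 685 and 803, and HSPE1 627 and 683. The range of HSPA8 took in that of HSPD1 and overlapped that of HSP90AA1, so the place of HSPA8 in this order is not settled. HSPD1 lay above HSP90AA1 in both batches, and HSPE1 below HSP90AA1 in each batch. STIP1 followed at 502.6 and 460 CPM per kb, DNAJA1, a J-domain partner of HSP70, at 361 and 364, HSPA9 at 221 and 183.9, HSPA4 at 82.1 and 105.02, and HSPH1 at 41.5 and 36.5. HSPA4 and HSPH1 are relatives of HSP70 that release its nucleotide. In Jurkat cells with DMSO the same genes ran from 1988 and 1887 CPM per kb for HSP90AB1 down to 57.3 and 44.9 for HSPH1. DNAJA1 at 501 and 487 was above STIP1 at 460 and 443 there, the reverse of J-Lat A2.

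The lines under DMSO were compared to see whether the clone differs before treatment. None of the 10 genes passed the test, in a comparison where 0.398% of all genes did (edgeR's quasi-likelihood test, Benjamini-Hochberg adjusted p under 0.05, here and below). The unadjusted p was under 0.05 for 1 gene, DNAJA1, with a log2 difference of -0.43 ± 0.13 (SE, adjusted p = 0.283). Of the 13560 genes tested, 1260 had an unadjusted p under 0.05. DNAJA1 was 859 and 866 CPM in J-Lat A2 and 1192 and 1160 CPM in Jurkat. DESeq2 called it (adjusted p = 0.0317) and called no other of the 10. Over plates the ranges of the 2 lines overlapped for all 10 genes, and the share of all genes with such overlap is not given here. HSPD1 was lower in J-Lat A2 than in Jurkat on 5 of 5 shared plates, with a log2 difference of -0.19 ± 0.13 that did not pass (adjusted p = 0.751).

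With SAHA, HSPA8 rose and several of the other chaperones fell in both lines. In J-Lat A2 cells 6 of the 10 genes fell (HSPD1, HSPE1, HSPA9, HSP90AB1, STIP1 and HSPH1) and 1 rose (HSPA8), where 8.43% of all genes were called, 3.53% up and 4.9% down. In Jurkat cells 5 fell (HSPD1, HSPE1, HSP90AB1, HSP90AA1 and HSPH1) and HSPA8 rose, where 4.22% of all genes were called, 1.84% up and 2.37% down. The median log2 change of the 10 genes was -0.62 in J-Lat A2 and -0.71 in Jurkat, against 0.12 and 0.11 over all genes tested. With PMA none of the 10 rose: 3 fell in J-Lat A2 (HSPD1, HSPE1 and HSP90AB1), where 1.98% of all genes were called, 1.18% up and 0.804% down, and 4 fell in Jurkat (the same 3 genes and HSP90AA1), where 2.27% were called, 1.17% up and 1.11% down. The medians with PMA were -0.59 in J-Lat A2 and -0.68 in Jurkat, against 0.04 and 0.07 over all genes. The 2 drugs were compared with the same DMSO samples, so their results are not independent of each other. DESeq2 called 8 of the 10 in Jurkat with either drug, and the share of all genes that it called is not given here. When wells were given equal weight and limma was used on log2(mean CPM + 1), no gene of the 13560 was called in any of the comparisons. The unadjusted p was then under 0.05 for 9 of the 10 chaperones with SAHA in J-Lat A2, 7 with SAHA in Jurkat, 4 with PMA in J-Lat A2 and 6 with PMA in Jurkat. The share of all genes under that cut in limma is not given here. In edgeR's test, in the same order, the unadjusted p was under 0.05 for 9, 10, 6 and 9 of the 10 chaperones. Of the 13560 genes it was under 0.05 for 2856, 2328, 1636 and 1842.

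**Figure D1:**
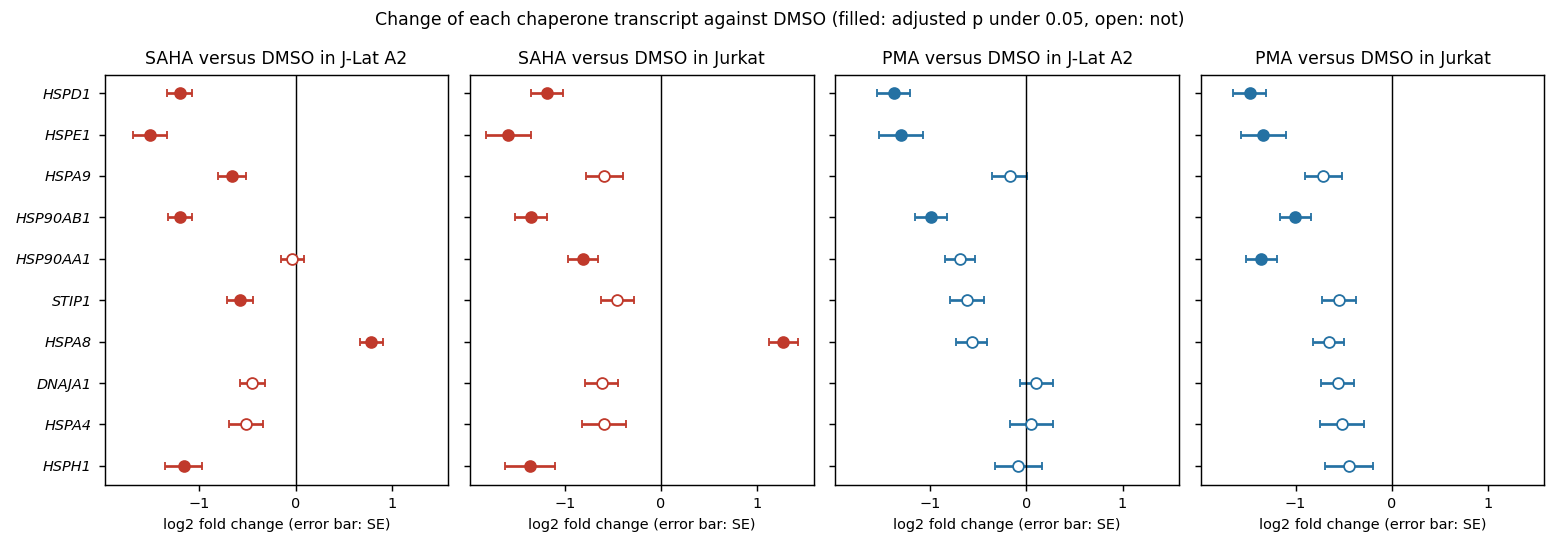
Log2 fold change against DMSO of the 10 chaperone genes (rows) for each drug and line (panels), with the standard error as bar; filled points passed an adjusted p of 0.05 in edgeR. HSPD1, HSPE1 and HSP90AB1 lie left of 0 and are filled in all 4 panels, and HSPA8 lies right of 0 in both SAHA panels, at 0.79 and 1.27.

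The mitochondrial chamber pair fell with both drugs in both lines. HSPD1, the HSP60 subunit of the chamber (chromosome 2, 197486581 to 197516737, minus strand, GRCh38), measured 2745, 1950, 2297, 2040 and 2071 CPM on the plates P2449, P2458, P2769, P2770 and P2771 in J-Lat A2 cells with DMSO. With SAHA it measured 1206, 1036, 800, 1090 and 986 CPM on the same plates. With PMA it measured 901, 794 and 904 CPM on the 3 plates of the second batch. No plate with a drug reached the lowest DMSO plate. In Jurkat cells HSPD1 was 2811, 2413, 2542, 2893 and 2651 CPM with DMSO, 1064, 1142 and 1154 with SAHA and 905, 1019 and 941 with PMA, again without overlap. The log2 change with SAHA was -1.20 ± 0.13 (SE, adjusted p = 0.0006) in J-Lat A2 and -1.18 ± 0.17 (adjusted p = 0.00556) in Jurkat. With PMA it was -1.38 ± 0.17 (adjusted p = 0.00378) in J-Lat A2 and -1.48 ± 0.17 (adjusted p = 0.00309) in Jurkat. These are falls of 2.27 to 2.79-fold, and HSPD1 was called in 13 or 14 of the 15 alternative analyses in each of the 4 comparisons. The Jurkat SAHA call was lost without the Jurkat DMSO sum of the second batch (log2 change -1.04, adjusted p = 0.051).

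HSPE1, the HSP10 lid of the chamber (chromosome 2, 197499994 to 197503457, plus strand), was lower in every plate with a drug than in every DMSO plate of its line. In J-Lat A2 it was 628, 491, 940, 505.8 and 436 CPM with DMSO, 207, 208, 287, 214 and 221 with SAHA and 350, 222 and 215 with PMA. Jurkat cells gave 640, 459, 704.4, 510.8 and 361 CPM with DMSO, 258, 127.1 and 168.6 with SAHA and 325, 174.9 and 184.5 with PMA. In all 6 groups the highest value was on plate P2769. The log2 change was -1.51 ± 0.17 (adjusted p = 0.000908) with SAHA and -1.30 ± 0.23 (adjusted p = 0.0199) with PMA in J-Lat A2. The Jurkat change was -1.59 ± 0.23 (adjusted p = 0.0066) with SAHA and -1.34 ± 0.23 (adjusted p = 0.0176) with PMA. Without the J-Lat A2 DMSO sum of the second batch, the J-Lat A2 PMA change of HSPE1 was -1.25 (adjusted p = 0.19) and was not called. Of the HSPE1 values above 0, 68% were not whole numbers, and a read-through gene, HSPE1-MOB4, held counts equal to 21.2% of those of HSPE1, so its level depends on how shared reads were divided. The ratio of HSPD1 to HSPE1 counts ran from 2.44 to 4.75 over the J-Lat A2 DMSO plates and from 2.78 to 5.82 over the J-Lat A2 SAHA plates, and these ranges overlapped.

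HSPA9, the matrix HSP70 that pulls proteins through the import channel, fell with SAHA in J-Lat A2. It was 1031, 1091, 719.03, 1087 and 825 CPM in J-Lat A2 with DMSO, 719.3, 683, 405, 608 and 637 with SAHA and 528, 867 and 838 with PMA. It was lower with SAHA on 5 of 5 plates, and the ranges overlapped by the highest SAHA plate alone. The log2 change was -0.66 ± 0.14 (adjusted p = 0.0207). This call was lost in 5 of the 15 alternatives, among them leaving out either J-Lat A2 DMSO sum (adjusted p = 0.0808 without the first batch and 0.252 without the second) and the J-Lat A2 SAHA sum of the first batch (adjusted p = 0.0814). In Jurkat the plate values did not overlap: 621 to 1095 CPM with DMSO, 369 to 597 with SAHA and 402 to 530 with PMA, with log2 changes of -0.59 ± 0.19 (adjusted p = 0.13) and -0.71 ± 0.19 (adjusted p = 0.1) that did not pass. DESeq2 called both (adjusted p = 0.024 and 0.00667), and so did edgeR with plates as units and a plate term (adjusted p = 0.0216 and 0.00989). With PMA in J-Lat A2 the change was -0.17 ± 0.19 (adjusted p = 0.834). The ratio of HSPA9 to HSPD1 counts was 0.313 to 0.560 over the J-Lat A2 DMSO plates, 0.506 to 0.659 with SAHA and 0.586 to 1.09 with PMA.

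**Figure D2:**
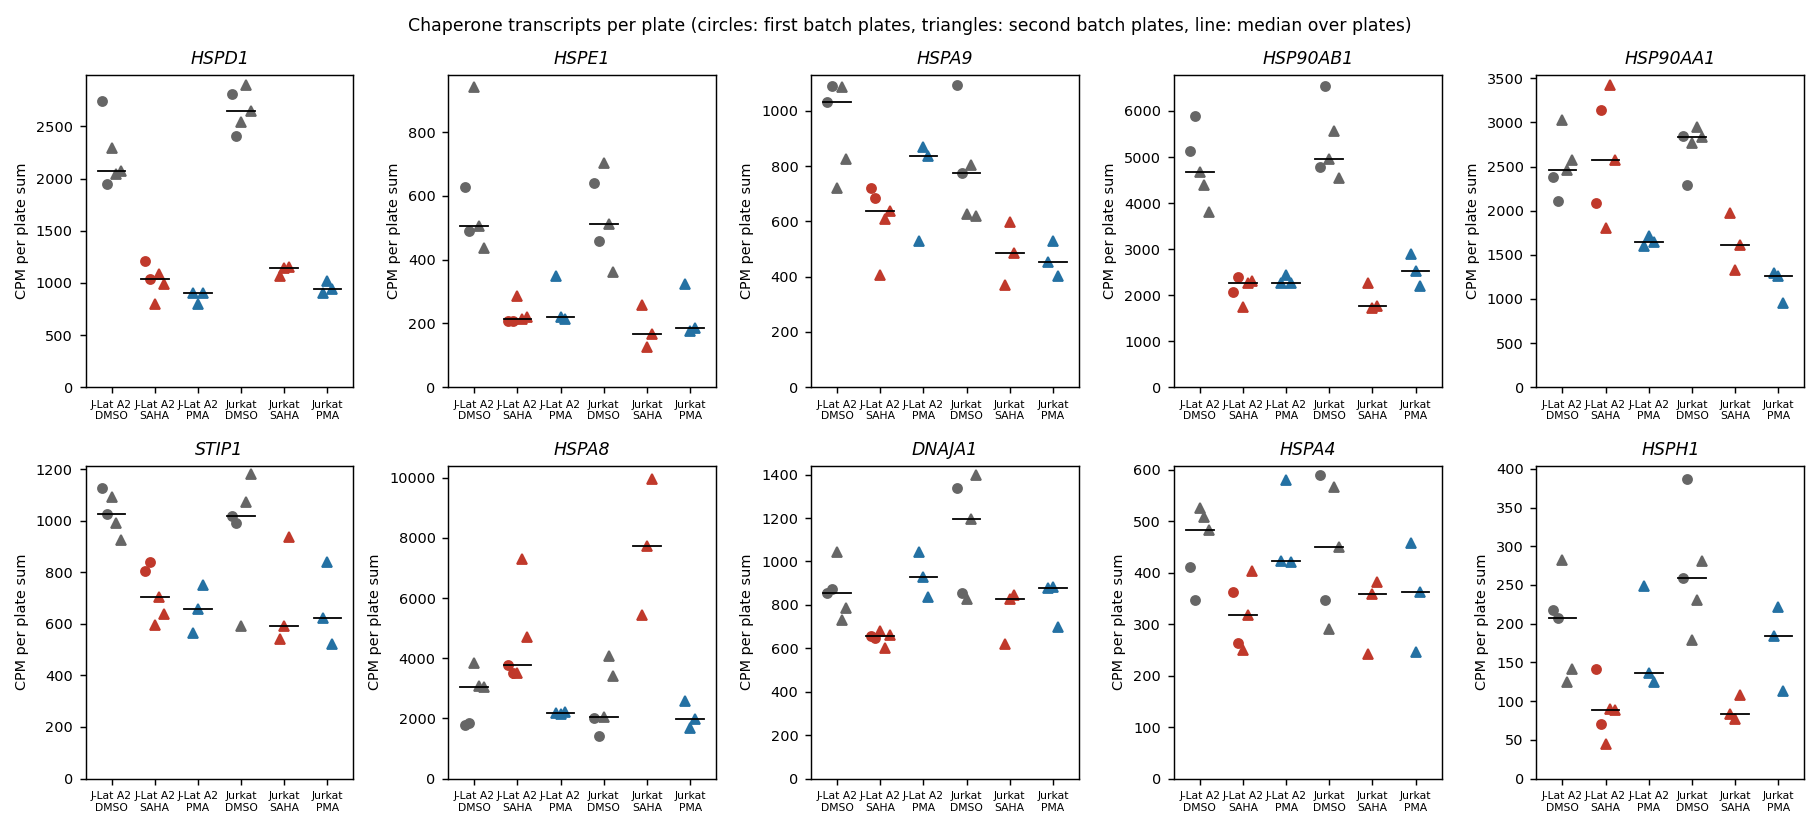
CPM of each chaperone gene per plate sum (y axis, from 0) in the 6 groups (x axis); circles are plates of the first batch, triangles plates of the second, and the line is the median over plates. All SAHA and PMA plates lie below all DMSO plates of the same line for HSPD1, HSPE1 and HSP90AB1, while HSPA8 reaches 9972 CPM on 1 Jurkat SAHA plate.

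The cytosolic HSP90 genes parted under SAHA. HSP90AB1 (chromosome 6, 44246166 to 44253888, plus strand) was 5124, 5880, 4673, 4384 and 3816 CPM in J-Lat A2 with DMSO. It was 2073, 2403, 1748, 2254 and 2307 CPM with SAHA and 2275, 2434 and 2257 with PMA. In Jurkat cells it was 4789, 6549.5, 4954, 5563 and 4536 CPM with DMSO, 2254, 1711 and 1775 with SAHA and 2901, 2523 and 2205 with PMA. No drug plate overlapped the DMSO plates of its line. HSP90AB1 fell by 1.20 ± 0.12 on the log2 scale with SAHA in J-Lat A2 (adjusted p = 0.000466) and by 1.35 ± 0.16 in Jurkat (adjusted p = 0.00259). With PMA it fell by 0.99 ± 0.16 in J-Lat A2 (adjusted p = 0.0145) and by 1.00 ± 0.16 in Jurkat (adjusted p = 0.0127). The PMA calls were lost without the second-batch DMSO sum of the same line (adjusted p = 0.0621 in J-Lat A2 and 0.0997 in Jurkat).

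HSP90AA1 (chromosome 14, 102080738 to 102139699, minus strand) did not fall beyond the spread in J-Lat A2 cells with SAHA. It was 2377, 2113, 3033, 2460 and 2579 CPM with DMSO and 2087, 3143, 1798, 3419 and 2574 CPM with SAHA, higher on 2 plates and lower on 3. The log2 change was -0.03 ± 0.12 (adjusted p = 0.931), and it was -0.17 (adjusted p = 0.518) over wells of at least 100000 counts and 0.27 (adjusted p = 0.362) over all 480 wells. Jurkat cells had 2845, 2294, 2764, 2950 and 2831 CPM with DMSO and 1972, 1331 and 1617 CPM with SAHA, without overlap. There it fell by 0.81 ± 0.16 on the log2 scale (adjusted p = 0.0204), a call lost with all 480 wells (adjusted p = 0.0686), with no batch term (0.0992) and without the second-batch sum of Jurkat DMSO (0.0769) or of J-Lat A2 DMSO (0.0503). The difference between the lines in this response was 0.78 ± 0.20 on the log2 scale, with an unadjusted p of 0.00273 and an adjusted p of 1 in edgeR's quasi-likelihood test, and DESeq2 called it (adjusted p = 0.029). With PMA, HSP90AA1 fell in Jurkat to 1296, 1262 and 955 CPM, by 1.36 ± 0.16 on the log2 scale (adjusted p = 0.00309). In J-Lat A2 with PMA it was 1602, 1711 and 1645 CPM, below all DMSO plates, and its change of -0.69 ± 0.16 did not pass (adjusted p = 0.0606), although DESeq2 called it (adjusted p = 0.00101), as did edgeR with plates as units and a plate term (adjusted p = 0.0397).

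The ratio of HSP90AA1 to HSP90AB1 counts shows the parting within each plate, free of the scaling to the total. It was 0.359 to 0.676 over the 5 J-Lat A2 DMSO plates and 1.01 to 1.52 over the 5 SAHA plates. The Jurkat plates had 0.350 to 0.624 with DMSO and 0.778 to 0.911 with SAHA. The SAHA plates lay above the DMSO plates in both lines. With PMA the ratio was 0.703 to 0.729 in J-Lat A2, just above its DMSO plates, and 0.433 to 0.500 in Jurkat, within its DMSO plates. The ratio compares counts, which longer transcripts raise, so a value of 1 does not mean equal numbers of molecules.

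**Figure D3:**
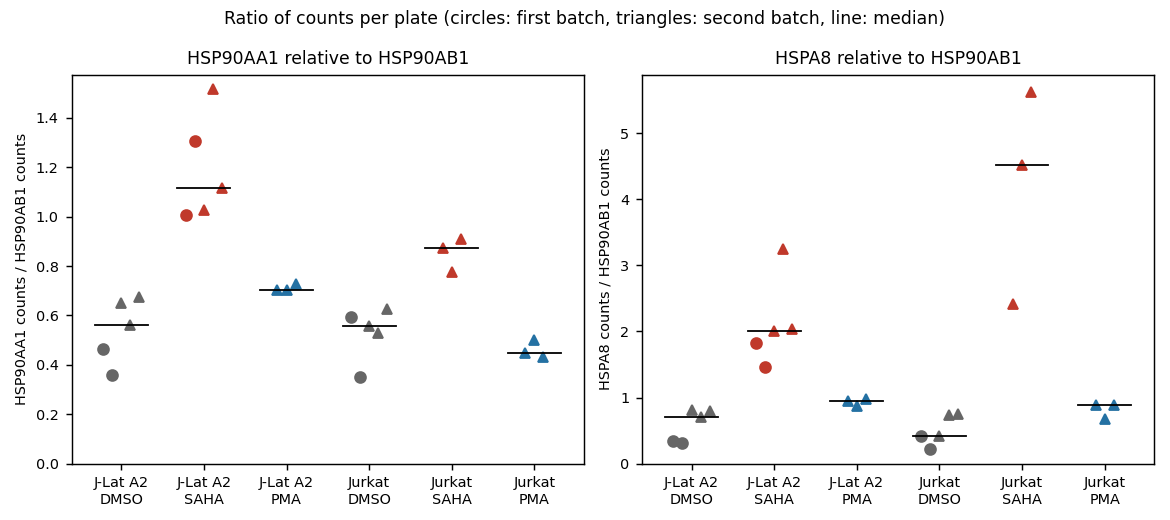
Ratio of HSP90AA1 to HSP90AB1 counts (left) and of HSPA8 to HSP90AB1 counts (right) in each plate sum (y axis, from 0) for the 6 groups (x axis); circles are first batch plates, triangles second batch plates, and the line is the median. All SAHA plates lie above all DMSO plates of their line in both panels, with HSP90AA1 to HSP90AB1 at 1.01 to 1.52 in J-Lat A2 SAHA.

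STIP1, which bridges HSP70 and HSP90, fell in J-Lat A2 with SAHA by 0.58 ± 0.13 on the log2 scale (adjusted p = 0.0265). It was 1128, 1024, 1093, 992 and 924 CPM with DMSO and 806, 839, 597, 704.8 and 637 CPM with SAHA, without overlap. The call held in 9 of the 15 alternatives, and it was lost without the first-batch (adjusted p = 0.151) or second-batch (0.245) sum of DMSO and without the second-batch sum of SAHA (0.139). Its changes of -0.62 ± 0.18 with PMA in J-Lat A2 (adjusted p = 0.139), -0.45 ± 0.18 with SAHA in Jurkat (0.215) and -0.55 ± 0.18 with PMA in Jurkat (0.175) did not pass. DESeq2 called the PMA changes (adjusted p = 0.0165 in J-Lat A2 and 0.036 in Jurkat).

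HSPA8, also called HSC70 (chromosome 11, 123057489 to 123063230, minus strand), was the one gene of the 10 that rose. In Jurkat it was 2016, 1413, 2053, 4070 and 3396 CPM with DMSO and 5448, 7719 and 9972 CPM with SAHA, higher on 3 of 3 shared plates and without overlap. It rose by 1.27 ± 0.15 on the log2 scale (adjusted p = 0.00258), 2.41-fold, and was called in 14 of the 15 alternatives. In J-Lat A2 it was 1787, 1843, 3830, 3087 and 3037 CPM with DMSO and 3792, 3498, 3516, 7306 and 4700 CPM with SAHA. It was higher on 4 of 5 plates, and plate P2769 went the other way. It rose by 0.79 ± 0.12 (adjusted p = 0.00439), 1.73-fold. HSPA8 differed between batches under DMSO itself, from 1800 to 3353 CPM in J-Lat A2 and from 1836 to 3275 CPM in Jurkat. Within batches the J-Lat A2 ratio of SAHA to DMSO was 2.05 in the first and 1.54 in the second, and the Jurkat ratio was 2.33 in the second. The J-Lat A2 call was lost with the second batch alone (adjusted p = 0.16), with no batch term (0.217) and without the first-batch DMSO sum (0.0923). The difference between the lines, -0.48 ± 0.20, did not pass (unadjusted p = 0.0361, adjusted p = 1).

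With PMA, HSPA8 was 2171, 2133 and 2220 CPM in J-Lat A2 and 2578, 1691 and 1973 CPM in Jurkat. The log2 changes of -0.57 ± 0.16 (adjusted p = 0.128) and -0.66 ± 0.16 (0.0709) did not pass. DESeq2 called both (adjusted p = 0.0164 and 0.00236), and so did edgeR without the first-batch J-Lat A2 SAHA sum (0.0305 and 0.0123) or without the second-batch one (0.0251 and 0.0104). The ratio of HSPA8 to HSP90AB1 counts was 0.313 to 0.819 over the J-Lat A2 DMSO plates, 1.46 to 3.24 with SAHA and 0.876 to 0.983 with PMA. The Jurkat ratio was 0.216 to 0.749 with DMSO, 2.42 to 5.62 with SAHA and 0.670 to 0.894 with PMA. HSPA8 counts thus passed those of HSP90AB1 on all SAHA plates and on no other plate.

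HSPH1, DNAJA1 and HSPA4 work with HSP70 proteins, and none of them rose with SAHA. HSPH1, a large HSP70 relative that exchanges its nucleotide and dissolves aggregates, fell with SAHA. In J-Lat A2 it was 218, 208, 282.5, 125.02 and 141.6 CPM with DMSO and 141.5, 70.9, 44.1, 90.0 and 88.4 CPM with SAHA, lower on 5 of 5 plates with ranges that overlapped. Jurkat cells had 259.5, 387, 178.6, 231 and 281.5 CPM with DMSO and 83.2, 77.5 and 108.1 CPM with SAHA, without overlap. It fell by 1.16 ± 0.19 on the log2 scale in J-Lat A2 (adjusted p = 0.00603) and by 1.36 ± 0.26 in Jurkat (adjusted p = 0.0193). The J-Lat A2 call was lost with the second batch alone (adjusted p = 0.0680) and without the second-batch DMSO sum (0.0839), and the value was -0.49 with equal weight per well in limma. The Jurkat call was lost without the second-batch DMSO sum (0.0776). With PMA it was 248.8, 136.6 and 124.3 CPM in J-Lat A2 and 183.95, 222 and 113.7 CPM in Jurkat, with changes of -0.08 ± 0.24 and -0.45 ± 0.25 that did not pass (adjusted p = 1 and 0.512).

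DNAJA1 and HSPA4 passed edgeR's test with neither drug. DNAJA1 was lower with SAHA on 5 of 5 J-Lat A2 plates, at 602 to 681 CPM against 733 to 1043 with DMSO, without overlap (log2 change -0.45 ± 0.13, adjusted p = 0.07). In Jurkat it was 620 to 848 CPM with SAHA and 825 to 1401 with DMSO (-0.62 ± 0.17, adjusted p = 0.0879), and DESeq2 called both SAHA changes (adjusted p = 0.0122 and 0.00643). With PMA its changes were 0.10 ± 0.17 in J-Lat A2 and -0.56 ± 0.17 in Jurkat (adjusted p = 0.929 and 0.156), and DESeq2 called the latter (adjusted p = 0.0256). HSPA4 was 250 to 404 CPM with SAHA and 348 to 525 with DMSO in J-Lat A2, lower on 5 of 5 plates (-0.51 ± 0.17, adjusted p = 0.11, and 0.0443 in DESeq2), and its Jurkat SAHA change was -0.59 ± 0.23 (adjusted p = 0.215). With PMA the HSPA4 changes were 0.05 ± 0.22 in J-Lat A2 and -0.52 ± 0.23 in Jurkat (adjusted p = 1 and 0.36).

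The 2 drugs were set against each other in J-Lat A2; the same contrast in Jurkat was not tested. Of the 10 genes, 1 was higher with PMA than with SAHA (HSPH1) and 1 was lower (HSPA8), where 3.62% of all genes were called, 2.25% up and 1.37% down. HSPA8 was lower with PMA by 1.36 ± 0.17 on the log2 scale (adjusted p = 0.0016), with no overlap of plates. That call was lost with no batch term (log2 difference -0.98, adjusted p = 0.301). HSPH1 was higher by 1.08 ± 0.24 (adjusted p = 0.0394), on 3 of 3 plates with overlapping ranges. The HSPH1 call held in 10 of the 15 alternatives and was lost without the second-batch sum of SAHA (adjusted p = 0.261) or of DMSO (0.0508), with the second batch alone (0.0881) and with no batch term (0.131). HSPD1, HSPE1 and HSP90AB1 differed between the drugs by -0.18 ± 0.16, 0.21 ± 0.22 and 0.21 ± 0.15 (adjusted p of 0.737, 0.762 and 0.637). HSP90AA1 was lower with PMA on 3 of 3 plates, with a difference of -0.65 ± 0.16 that missed the threshold (adjusted p = 0.0525) and that DESeq2 called (adjusted p = 0.00128), as did edgeR with plates as units and a plate term (adjusted p = 0.0176). The plate fit also called HSPA9 higher with PMA (log2 difference 0.47, adjusted p = 0.0302, against 0.235 with batch sums).

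Whether the lines responded differently was tested as the difference of the 2 log2 changes. None of the 10 genes passed for SAHA, where 0.00737% of all genes were called, and none for PMA, where 0.0221% were, 0.00737% up and 0.0147% down. The unadjusted p was under 0.05 for 2 genes with SAHA, HSP90AA1 and HSPA8, and for 2 with PMA, HSP90AA1 (0.67 ± 0.20) and DNAJA1 (0.67 ± 0.23). DESeq2 called HSP90AA1 for SAHA and none of the 10 for PMA. A call in 1 line and not in the other, as for HSP90AA1, HSPA9 and STIP1, is therefore not shown to be a difference between lines.

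In single wells the medians of HSPD1 and HSP90AB1 were lower with both drugs in J-Lat A2, and the spread between wells was wider with SAHA for these genes and for HSPA8. The coefficient of variation over first-batch J-Lat A2 wells was 0.403 with DMSO and 0.837 with SAHA for HSPD1, 0.433 and 0.742 for HSP90AB1, and 0.914 and 1.72 for HSPA8. In the second batch it was 0.374 and 0.531 for HSPD1, 0.324 and 0.516 for HSP90AB1, and 0.701 and 1.16 for HSPA8. Of the first-batch wells, 14 of 67 with SAHA and 3 of 59 with DMSO held under 100000 counts. In the second batch 4 of 68 and 0 of 35 did. The part of depth in this spread was not tested. The median well of J-Lat A2 had 2199 CPM of HSPD1 in the first DMSO batch and 2005 in the second, 922 and 916 with SAHA and 853 with PMA. HSP90AB1 medians were 5344 and 4563 CPM with DMSO, 1779 and 2025 with SAHA and 2169 with PMA. For HSPA8 the middle of the J-Lat A2 wells in the second batch, from the lower to the upper quartile, ran from 1390 to 4138 CPM with DMSO and from 844 to 6382 CPM with SAHA. The medians there were 2767.5 and 2393 CPM, so the median well with SAHA was not above that with DMSO although the sum was. In the first batch the median was 1423 CPM with DMSO and 1888 CPM with SAHA, and the 90th percentile 3586 and 12227 CPM. In Jurkat the median well had 3111 CPM of HSPA8 with DMSO in the second batch and 6907 CPM with SAHA, and the quartiles moved from 1809 and 3775 CPM to 3307 and 10268 CPM. In the second batch, then, the median well was higher with SAHA in Jurkat and not in J-Lat A2, and in the first batch it was higher in J-Lat A2 too.

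**Figure D4:**
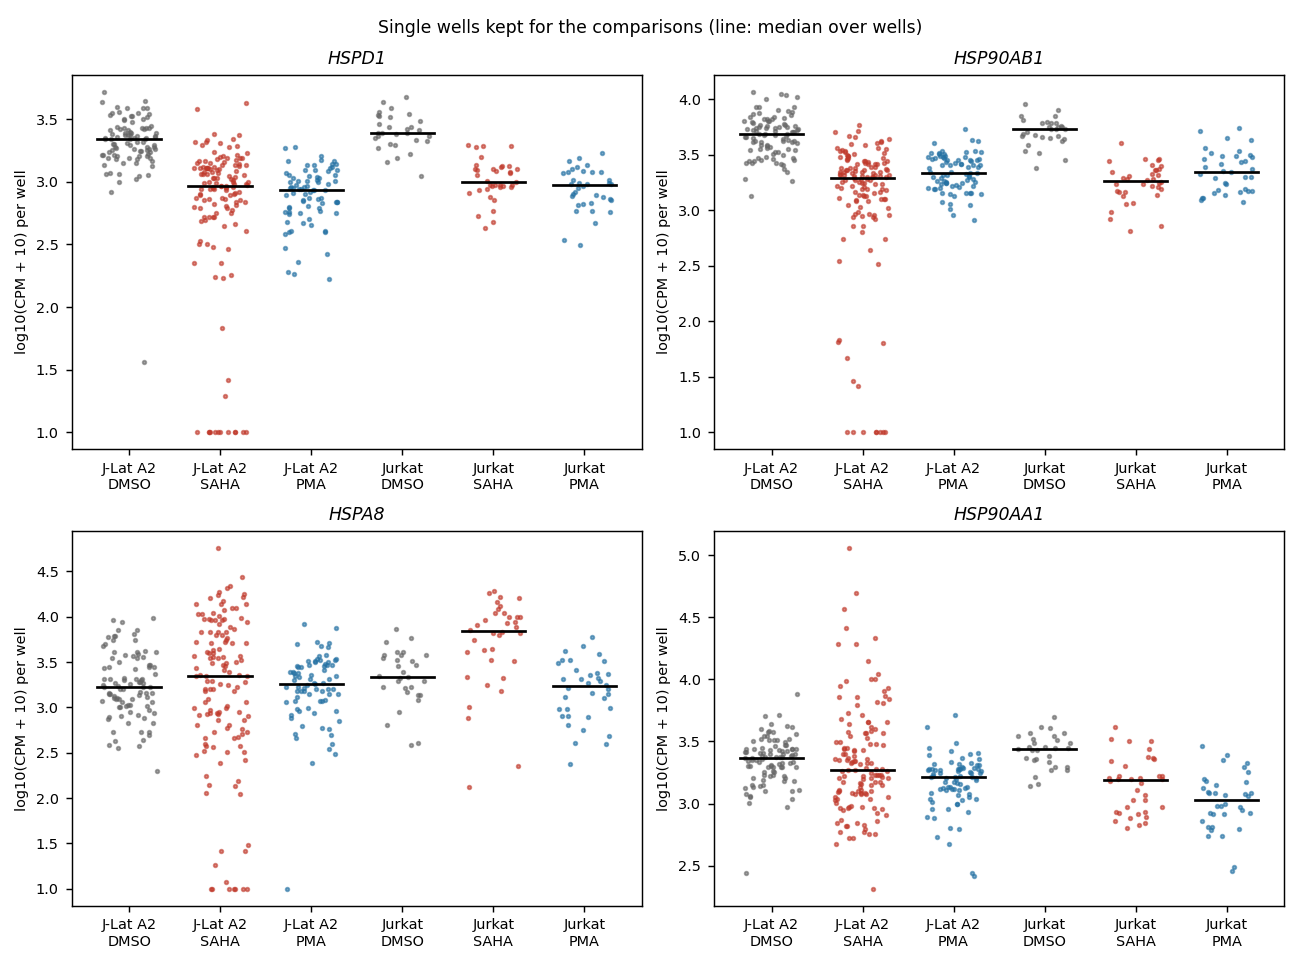
log10(CPM + 10) of HSPD1, HSP90AB1, HSPA8 and HSP90AA1 in each kept well (points) of the 6 groups (x axis), with the median as line. With SAHA or PMA the medians of HSPD1 and HSP90AB1 lie below those with DMSO, and the points of HSPA8 and HSP90AA1 spread both ways in J-Lat A2 SAHA wells.

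The share of wells with a read was lower with SAHA than with DMSO for the scarce genes HSPH1 and HSPA4. HSPH1 had a read in 51 of 59 J-Lat A2 DMSO wells of the first batch and 29 of 35 of the second (86.4% and 82.9%), in 31 of 67 and 29 of 68 with SAHA (46.3% and 42.6%) and in 57 of 79 with PMA (72.2%). After thinning each well to 100000 counts, which left out 18 SAHA, 3 DMSO and 2 PMA wells that were shallower, the shares were 83.9% and 77.1% with DMSO, 52.8% and 39.1% with SAHA and 68.8% with PMA. In Jurkat HSPH1 had a read in 12 of 12 and 17 of 18 control wells, in 26 of 36 SAHA wells (72.2%) and in 29 of 36 PMA wells (80.6%), or 66.7% and 77.8% of the drug wells after thinning. HSPA4 had a read in 57 of 59 and 34 of 35 J-Lat A2 wells with DMSO and in 39 of 67 and 52 of 68 with SAHA, or 71.7% and 76.6% of the SAHA wells after thinning. With PMA it had a read in 70 of 79 J-Lat A2 wells (88.6%), or 85.7% after thinning. In J-Lat A2 the PMA shares of HSPH1 and HSPA4 thus lay below their DMSO shares. Their log2 changes with PMA there were -0.08 and 0.05, so the share did not simply follow the level. The abundant genes were found in nearly every well: HSPD1, HSPE1, HSP90AB1, HSP90AA1 and HSPA8 had reads in all DMSO wells of both lines. In the first-batch J-Lat A2 SAHA wells HSPD1 was read in 56 of 67 (83.6%), and in 98.1% of the 53 wells deep enough for thinning.

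HSP90AA1 stood out in shallow wells. Of the J-Lat A2 SAHA wells, 66 were left out for low counts, with a median of 12828 counts, and 18 of those kept had under 100000. HSP90AA1 had a read in 55 of the 66 wells left out (83.3%) and in all 18 shallow kept wells. Its median was 19153 CPM in the wells left out, 9495 CPM in the shallow kept wells and 1672 CPM in the deeper ones. No single well carried this, since the top well held 11.2% of the HSP90AA1 counts of the wells left out. HSP90AB1 had a read in 29 of those 66 wells, with a median of 0 CPM, and HSPD1 in 6. Over the sum of these wells HSP90AA1 was 30778 CPM, HSPA8 5617, HSP90AB1 1373 and HSPD1 225 CPM. Only 2 J-Lat A2 DMSO wells were left out, so a like comparison of wells left out was not possible in control cells. Of the kept J-Lat A2 DMSO wells, 3 held under 100000 counts, all in the first batch. No kept DMSO well of that batch was above 5131 CPM of HSP90AA1. Among kept J-Lat A2 SAHA wells of the first batch the 90th percentile of HSP90AA1 was 14287 CPM and the highest well 114652 CPM, against 3357 and 5131 CPM with DMSO. In the second batch these were 5307 and 14115 CPM with SAHA, against 4055 and 7558 CPM with DMSO. Of the 18 shallow kept wells, 14 were in the first batch and 4 in the second.

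**Figure D5:**
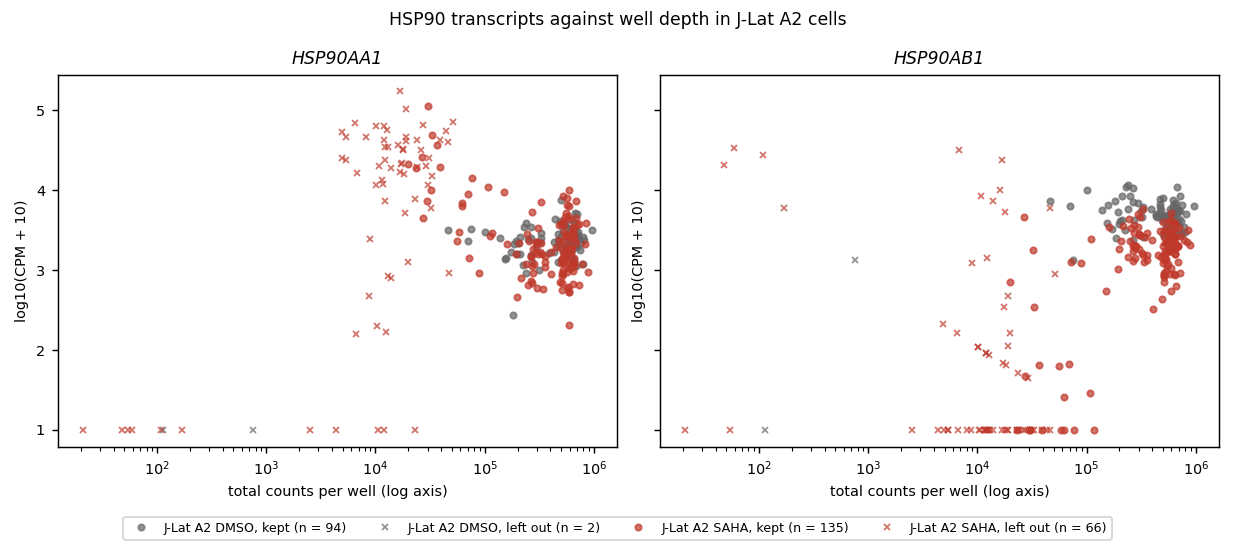
log10(CPM + 10) of HSP90AA1 (left) and HSP90AB1 (right) against the total counts of each J-Lat A2 well (log x axis); grey is DMSO, red is SAHA, circles are kept wells and crosses wells left out. Shallow red wells lie above the deep wells for HSP90AA1, with a median of 19153 CPM among the 66 left out, while for HSP90AB1 most of them lie at or near 0 CPM.

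Genes that work with these chaperones were followed in 6 lists of 83 genes, of which 77 were tested. With SAHA in J-Lat A2, 2 rose and 8 fell, 2.6% and 10.4% of the 77, where 3.53% of all genes rose and 4.9% fell. BAG2, which stops the CHIP ligase from tagging HSP70 clients, fell by 1.79 ± 0.30 on the log2 scale (adjusted p = 0.00591), from 143.9 ± 14.04 to 43.3 ± 13.0 CPM (SD, n = 2 sums). GRPEL1, the nucleotide exchanger of HSPA9, fell by 1.26 ± 0.18 (adjusted p = 0.00256). Among HSP90 cochaperones AHSA1, which speeds the HSP90 ATPase, fell by 0.93 ± 0.15 (adjusted p = 0.00521), and the immunophilins FKBP4 and PPID fell by 0.89 ± 0.17 and 1.26 ± 0.28. CDC37, which brings kinases to HSP90, rose by 0.79 ± 0.16 (adjusted p = 0.0155), from 244 ± 46.2 to 431 ± 17.4 CPM (SD, n = 2 sums). The matrix protease CLPP fell by 0.98 ± 0.19 and the endoplasmic reticulum chaperone CALR by 1.31 ± 0.19. The other riser, in the list of cytosolic HSP70 and J-domain proteins, was below the 20 CPM set for naming genes.

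With SAHA in Jurkat, 4 of the 77 fell (5.19%, against 2.37% of all genes) and none rose: BAG2 (-1.71 ± 0.40), GRPEL1 (-1.21 ± 0.23), FKBP4 (-1.85 ± 0.24) and AHSA1 (-1.01 ± 0.20). With PMA, 2 fell in J-Lat A2 (2.6%, against 0.804% of all genes), the HSP90 cochaperone PTGES3 (-1.19 ± 0.25) and CALR (-1.83 ± 0.27). In Jurkat 4 fell with PMA (5.19%, against 1.11% of all genes), GRPEL1 (-1.29 ± 0.23), FKBP4 (-1.46 ± 0.24), the mitochondrial HSP90 TRAP1 (-1.23 ± 0.25) and CALR (-1.31 ± 0.26). PMA against SAHA in J-Lat A2 gave 2 genes that were lower with PMA (2.6%, against 1.37% of all genes), the J-domain protein DNAJB1 (-1.36 ± 0.29) and PTGES3 (-1.11 ± 0.24). None of the 77 was called between the lines under DMSO or in the differences of response. These shares rest on 2 to 8 genes each and were not tested as lists. The heat shock factors and their regulators, 5 genes tested, gave no call in any of the 8 comparisons. HSBP1, the most abundant of them and a binder of heat shock factor trimers, changed by 0.29 ± 0.18 with SAHA in J-Lat A2 (adjusted p = 0.451).

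The genes most like 4 of the chaperones were found by Pearson's r of log2 levels over the 9 batch sums, among 5910 genes. These sums share drugs and batches, so r describes the pattern over groups only. HSPD1 was most like FARSA (0.986), CCT7 (0.983), CDC123 (0.979) and PAICS (0.978). HSP90AB1 was most like IFRD2 (0.990), PAICS (0.988), POLR3K (0.985) and CCT4 (0.983). CCT7 and CCT4 are subunits of the cytosolic folding chamber TRiC. HSPA8 was most like DNAJB1 (0.976), which helps HSP70 proteins take up clients, followed by MPLKIP (0.971), SMIM8 (0.966) and ELOB (0.964). DNAJB1 was 80.8 and 175.1 CPM in the J-Lat A2 sums with DMSO, 172.9 and 228 with SAHA and 98.98 with PMA, and in Jurkat 110.4 and 177.3 with DMSO, 326 with SAHA and 104.9 with PMA. HSP90AA1 had no match as close, with NTHL1 (0.940), POP7 (0.937), OXNAD1 (0.934) and LRRC59 (0.931) the nearest.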

How the data were processed

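Expected counts per gene and well were deposited by the authors, not divided by depth. GRCh38.p13 is the build, and alevin and Salmon 1.5.1 the tools, per the submitters' processing notes, which name no order. The read filters and strand setting, not given in the sources used here, could move reads between overlapping genes. Per the labels' protocols the libraries carry no molecular identifier, so counts are reads after amplification. Batches were inferred from plate names. Wells were kept with at least 1/10 of the median total of their plate and at least 500 genes. Totals of kept wells ran from 19756 to 984418.

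Counts were summed per group and batch (9 sums), rounded, and tested with edgeR 4.0.16 (R 4.3.3; TMM factors, quasi-likelihood F test, group plus batch, 2 residual degrees of freedom) over 13560 genes, with Benjamini-Hochberg adjustment. DESeq2 1.42.0, limma 3.58.1 and other filters, units and left-out sums were alternatives. The edgeR step was tested on simulated data. The labels do not say that batches were separate cultures, so p-values measure the spread between these sums, which may be technical. Genes, partner lists and tests were chosen with earlier results of these data known. Named partners were up to 3 called genes in each direction per list of at least 20 CPM, or its most abundant gene where none was called. Intervals cover counting error only. Coordinates come from GENCODE 29 and lengths from its principal transcripts.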

Additional observations from a re-analysis of the deposited data

Results flagged for a closer look

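HSPE1 measured 287 CPM on plate P2769 in J-Lat A2 cells with SAHA, apart from the other 4 plates of that group at 207 to 221 CPM. HSP90AA1 measured 2294 CPM on plate P2458 in Jurkat cells with DMSO, apart from the other 4 at 2764 to 2950 CPM; that sum held 6 wells. Each gap was above Dixon's 95% critical value for 5 samples. Of 30 groups of plates tested 2 were found, and chance gives about 1 in 20.

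In the 66 J-Lat A2 SAHA wells left out for low counts, which entered only the alternative with all 480 wells, 3 of the 10 genes lay above both batch sums of J-Lat A2 cells with DMSO. The share of all genes that did so is not given here, so the count is not a result about the chaperones. HSP90AA1 was 30778 CPM against 2314 and 2712 CPM, with a read in 55 wells. HSPA8 was 5617 CPM against 1800 and 3353 CPM, with a read in 31 wells. STIP1 was 1130 CPM against 1010 and 1104 CPM, with a read in 9 wells, of which the top well held 41.2% of its counts. These wells had a median of 12828 counts, and what sets their levels was not tested.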

How the results depend on the processing

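The 22 changes called for the 10 genes kept their sign in all 15 alternatives, and 10 of them were still called in every alternative but the equal-weight limma fit. The alternatives reuse the counts in which the 22 were called, so a kept sign is weak evidence. A like share for all called genes is not given here. Of the 58 values that were not called, 18 changed sign in some alternative. For the counts that follow, the share of all genes called in each alternative is not given here. The count called with SAHA in J-Lat A2, 7, was 4 with the second batch alone, 4 with no batch term and no replicate block, and 4 to 7 when single sums were left out. With PMA in J-Lat A2 it was 3, and 6 with DESeq2 and 1 to 5 with sums left out. With SAHA in Jurkat it was 6, and 3 to 6 with sums left out. With PMA in Jurkat it was 4, and 8 with DESeq2. Between the lines under DMSO it was 0, and 1 with DESeq2. For PMA against SAHA it was 2, with 4 in DESeq2, 4 with plates as units, 0 with no batch term and no replicate block, and 1 to 3 with sums left out. For the SAHA response between lines it was 0, and 1 with DESeq2. Equal weight per well with limma gave 0 in each comparison. The sums whose removal moved a count by over 1.5 times were those of J-Lat A2 DMSO and J-Lat A2 SAHA in either batch and of Jurkat DMSO in the second. The cause of these changes was not tested. The labels carry no replicate numbers, but groups share batches and plates: batch was a term of the edgeR fit, and with plate as the block the counts were 7, 4, 7 and 5 for SAHA and PMA in J-Lat A2 and then in Jurkat. Depth limits HSPH1 and HSPA4 most, whose reads were missing from many single wells.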

Other observations

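From well to well within a group, HSPA8 and DNAJA1 varied together in all 6 groups. Spearman's rho of their CPM over wells was 0.43 in J-Lat A2 with DMSO, 0.31 with SAHA and 0.29 with PMA, and 0.57, 0.58 and 0.54 in Jurkat with DMSO, SAHA and PMA. Over the 9 batch sums their levels went apart, with Pearson's r of -0.55. HSPA8 and HSP90AA1 had a rho of 0.36 in J-Lat A2 and 0.48 in Jurkat with SAHA, 0.25 and 0.24 with PMA, and 0.08 and 0.11 with DMSO. HSPD1 and HSPE1, which form 1 chamber, had a rho of 0.17 to 0.45 over the 6 groups. Wells of a group share plates and differ in depth, and these values are given as a description.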
